A study of Mus musculus with 36 samples.

Results

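The late step of a time course in PKBa-/- mouse embryonic fibroblasts was compared between 4 arrays at time 48 and 4 arrays at time 24, 8 of the 36 arrays of the study. The samples were taken by their labels, and all genes measured brightly enough were described. The cells came from embryos of 13.5 days from crosses of heterozygous PKBa mice, and per the labels were used between passages 15 and 20. PKBa-/- cells lack the gene Akt1, and the labels do not say how many embryos gave the cells of either genotype; wild type fibroblasts at times 48 and 24, with 4 arrays each, served for comparison. The labels give times without a unit. The series title names treatment with DMEM, a standard culture medium, while the extraction protocol also describes a medium that induces fat cells; the labels do not say which medium these arrays received. Nothing in the labels states whether the 4 replicates were grown separately. The p-values measure a spread between averaged replicates, pooled over the groups of the study with 4 arrays, and that spread may be technical. Groups at time 2 have 2 arrays each and add nothing to it. In the paired test described below, it is the spread left after the difference between replicate sets is removed.

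Akt1 encodes PKB alpha, a serine/threonine kinase that acts downstream of insulin and growth factor receptors and promotes growth, glucose use and survival. Fibroblasts are the main makers of collagen and other extracellular matrix, and in culture they divide until they are crowded or starved of growth factors. Dividing cells copy DNA in S phase, when genes of the replication machinery are most expressed, and later express the genes of mitosis.

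Akt1 signal checked the labels: the 8 PKBa-/- arrays read 58.3 to 103, and all PKBa-/- arrays of the study lay between 43.9 and 103, while the lowest wild type array read 843. Genes were tested where their mean log2 over all 36 arrays lay above that of a signal of 123, and all 12 fibroblast markers on the array had mean signals above 123 in these 8 arrays. Their summed signal ran from 80960 to 87860 at time 24 and from 84540 to 88060 at time 48, so the groups overlapped. No epithelial, mesothelial or neural marker reached 123 in these arrays. Those that did were Csf1r of 7 macrophage markers, Kdr of 6 endothelial, Des of 6 skeletal muscle, Sox9 and Col2a1 of 5 chondrocyte and Sp7 of 3 osteoblast markers, with means between 150 and 338 at either time, and none of them passed either test. The summed signals of these 5 lists overlapped between the times. Median signals of the 36 arrays lay within 1.09-fold of each other. Within PKBa-/- fibroblasts, replicates 1 and 2 were nearly alike (correlation 0.993 at time 24 and 0.995 at time 48), as were replicates 3 and 4 (0.988 and 0.990), while arrays across these pairs correlated at 0.956 to 0.987. The arrays of a pair were therefore averaged, and each group counted as 2 pair averages.

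Expression was taken as log2(signal + 32), and each difference is time 48 minus time 24 on that scale, which understates the change of dim genes. Limma's moderated test gave 2 sets of p-values, adjusted by Benjamini and Hochberg over 7436 genes. The test planned as the main one compared group means, and 10 genes passed at an adjusted p of 0.05 (0.134% of those tested), 3 higher and 7 lower at time 48; at an unadjusted p of 0.05 it gave 541. After quantile normalization 17 genes passed, 8 higher and 9 lower. With 16 added to the signal in place of 32, 4 passed, and with the mean of all probe sets of a gene 1 passed. A paired test, with the replicate set as a block within genotype, gave the same differences with smaller errors: 379 genes passed (5.10%), 216 higher (2.90%) and 163 lower (2.19%). In each of the 379 the sets moved in 1 direction, a pattern the paired test itself favours. All 10 genes of the unpaired test were among them, but the tests share the same differences and are not independent. Only 6 residual degrees of freedom stood behind the paired test and 8 behind the unpaired one. Where earlier and later arrays are said not to overlap, this describes genes mostly named for large differences. How many of all tested genes had no overlap was not counted. Below, "rose" and "fell" mean that a gene passed the paired test, errors are its SE, and adjusted p is from it unless the unpaired test is named; the preference for the paired calls was made after both counts were seen.

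**Figure D1:**
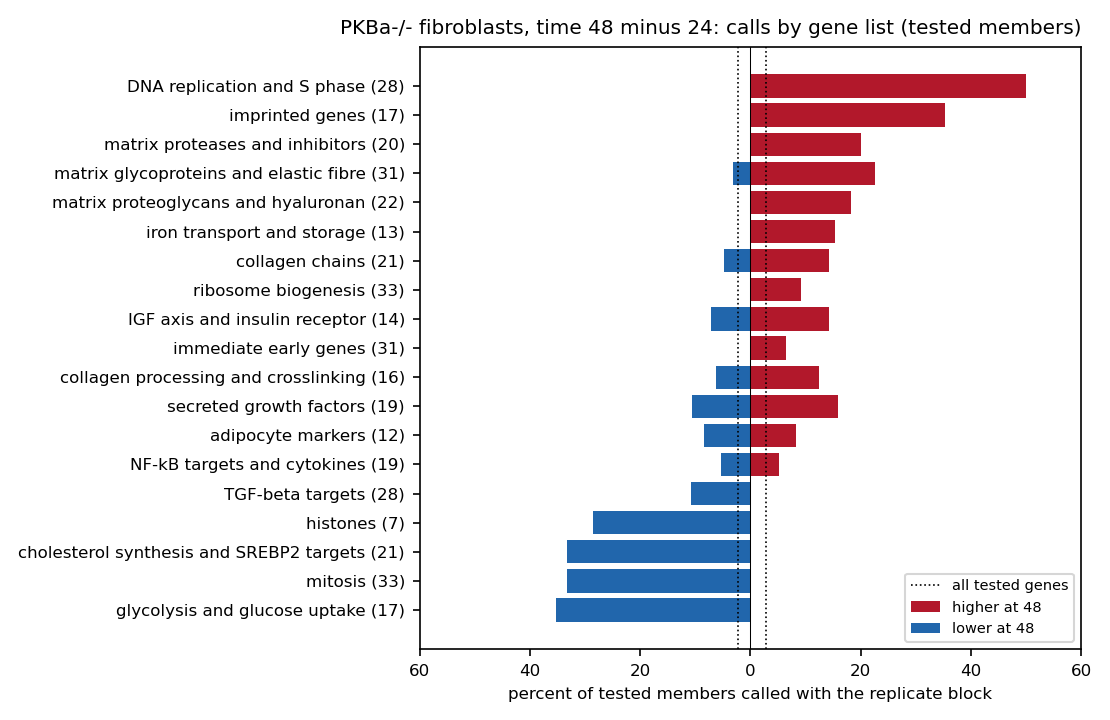
Bars give, for gene lists with at least 2 members called by the paired test, the percent of tested members called higher (right) or lower (left) at time 48 in PKBa-/- fibroblasts; the number of tested members is in brackets and dotted lines mark all tested genes (2.90% and 2.19%). Of the DNA replication list 14 of 28 members were called higher, and of the mitosis list 11 of 33 were called lower.

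Of the 10 genes that passed both tests, 3 rose. Dpt, which encodes dermatopontin, a small matrix protein that binds decorin and collagen, read 2265, 2271, 2346 and 1907 at time 24 and 4817, 4866, 4496 and 4867 at time 48. Every later array stood far above every earlier one, and the difference was 1.11 ± 0.12 (adjusted p = 0.000308; unpaired 0.0142). In wild type arrays Dpt stayed near 58.0 and 59.4 on average, under a signal of 123, so a change there could hardly be read. Apod, a lipid-carrying apolipoprotein, rose from 544, 479, 422 and 442 to 1253, 1142, 973 and 697 (difference 1.03 ± 0.11, unpaired adjusted p = 0.0491). Twist1, a transcription factor of mesenchymal cells, rose from 595, 542, 472 and 496 to 849, 916, 886 and 834 (difference 0.70, unpaired adjusted p = 0.048). Neither gene's groups overlapped.

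The 7 genes that fell by both tests were of varied function. Ccnb2, the mitotic cyclin B2, is described with the mitosis genes. Tes, a protein of focal adhesions, fell from 365, 312, 347 and 389 to 152, 159, 213 and 163 (difference -0.93, unpaired adjusted p = 0.0142). Cd1d1, a molecule that presents lipids to T cells, fell from 240, 241, 260 and 264 to 126, 133, 136 and 135 (difference -0.78, unpaired adjusted p = 0.0426). Cux1, a homeodomain transcription factor, fell from 399, 374, 391 and 344 to 250, 220, 211 and 207 (difference -0.69, unpaired adjusted p = 0.0426). Between those groups no array overlapped. Casp12, a caspase of the endoplasmic reticulum, differed by -0.70, Tspo, a mitochondrial outer membrane protein, by -0.84, and Rnaseh2c, a subunit of RNase H2, by -0.87, with unpaired adjusted p between 0.048 and 0.0484. Of the 10, only Dpt, Tes and Cd1d1 passed the unpaired test whichever of the 8 arrays was left out. Without replicate 2 of time 24 it called 6 genes, and without replicate 2 of time 48 it called 4. Without replicate 4 of time 24 it called 4, and without replicate 3 of time 24 it called 15. With the mean of all probe sets of a gene, the unpaired test called 1 gene, higher at time 48, so neither Tes nor Cd1d1 passed.

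Part of the mitosis genes fell in PKBa-/- fibroblasts between times 24 and 48. Of 33 tested members of the list, 11 fell and none rose (background 2.19% of tested genes falling). At time 48, 30 were lower, where 48.9% of all tested genes were, and the median difference was -0.36, against 0.00 over all genes. The unpaired test called 1 of them, Ccnb2. The median was -0.51 in replicates 1 and 2 and -0.27 in replicates 3 and 4. In RNA from whole cultures, fewer cells of a kind and less RNA per cell cannot be told apart.

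Ccnb2 is shown with its promoter, since promoters of mitotic genes are known for CCAAT boxes, bound by the factor NF-Y, and for the element called CHR. The 250 bases before its start, at chr9:70421555-70421804 (minus strand, GRCm38.p6, from RefSeq), are set beside those of the replication gene Mcm6, at chr1:128359706-128359955 (minus strand), because these genes moved in opposite directions. Capitals mark CCAAT and TTTGAA (the CHR letters), and the E2F letters TTTCGCGC or TTTGGCGC, wherever they stand on either strand of these promoters.
Ccnb2: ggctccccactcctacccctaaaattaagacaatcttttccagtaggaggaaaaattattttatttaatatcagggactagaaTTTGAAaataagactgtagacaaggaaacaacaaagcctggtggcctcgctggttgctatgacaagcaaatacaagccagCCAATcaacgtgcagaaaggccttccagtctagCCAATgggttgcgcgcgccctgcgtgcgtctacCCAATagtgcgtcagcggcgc
Mcm6: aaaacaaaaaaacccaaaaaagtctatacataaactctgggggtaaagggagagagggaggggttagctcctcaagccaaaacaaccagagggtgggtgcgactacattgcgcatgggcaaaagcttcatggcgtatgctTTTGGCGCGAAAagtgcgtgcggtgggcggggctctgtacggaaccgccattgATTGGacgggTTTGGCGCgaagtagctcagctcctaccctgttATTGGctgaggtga
In Ccnb2 the CCAAT boxes began 87, 54 and 21 bases before the start, and TTTGAA 167 bases before it. In Mcm6 the E2F letters began 110 and 47 bases before the start on the gene's strand, and on the other strand an overlapping match covered bases 106 to 99. Mcm6 held CCAAT too, on the other strand, at bases 57 to 53 and 14 to 10 before the start. CCAAT on either strand lay in 21 of 27 promoters of mitosis genes with an entry (77.8%), in 17 of 24 of the replication genes (70.8%), in 36.3% of the 6056 tested genes with an entry and in 34.5% of all 27025 promoters of the same length. TTTGAA lay in 33.3% of the mitosis promoters, 12.5% of the replication promoters, 10.2% of those of tested genes and 16.3% of all. The E2F letters lay in 1 of 27 (3.7%), in 4 of 24 (16.7%), in 1.55% of tested genes and in 0.673% of all. These matches describe letters and were not tested for binding.

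Ccnb2 signal was 1609, 1526, 1281 and 1415 at time 24 and 542, 576, 532 and 495 at time 48. All 4 later arrays lay far below all earlier ones, and the means differed 2.72-fold (difference -1.39 ± 0.17, adjusted p = 0.000562; unpaired 0.0426). Cenpa, the histone variant that marks centromeres, fell from 1510, 1242, 1009 and 1259 to 451, 564, 452 and 529 (2.52-fold, difference -1.27 ± 0.14, adjusted p = 0.000321; unpaired 0.0823). Kif20a, a kinesin of the dividing midzone, fell 2.17-fold from 738, 682, 442 and 471 to 267, 302, 238 and 268. Its groups did not overlap either. Cdca3, which promotes entry into mitosis, fell by 0.86 and Pttg1 (securin) by 0.83. Cenpf fell by 0.72 and Cdc20, an activator of the anaphase-promoting complex, by 0.62. Kif23, Bub1b, Ube2c and Ckap2 fell by 0.46 to 0.54. The calls of Cdc20, Bub1b, Ube2c and Ckap2 were lost without at least 1 array, with adjusted p up to 0.0868. Cdk1, the kinase that cyclin B activates, read 1236, 1052, 875 and 975 at time 24 and 1094, 1065, 1032 and 927 at time 48, fully overlapping (difference 0.00, adjusted p = 0.998). Ccna2, the cyclin of S and G2 phase, differed by -0.30 (adjusted p = 0.196).

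Some mitosis genes fell in wild type fibroblasts too. There 14 of 33 members fell by the paired test, as did 39 of all 7436 tested genes, and the median was -0.59. None of the 33 passed the test of the difference between the genotypes' steps. Ccnb2 differed by -1.07 in wild type, from a mean signal of 768 ± 80.2 (SD, n = 4) to 350 ± 37.3. The mean log2 level of the mitosis list over PKBa-/- arrays was 8.68 ± 0.17 (SD, n = 4) at time 0, 9.53 ± 0.22 at time 24 and 9.11 ± 0.08 at time 48.

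Part of the DNA replication genes rose over the same step. Of 28 tested members 14 rose and none fell (background 2.90% of tested genes rising), and all 28 were higher at time 48, where 51.1% of all tested genes were. Their median difference was 0.45, being 0.36 in replicates 1 and 2 and 0.52 in replicates 3 and 4. The unpaired test called none of them, with adjusted p from 0.161 to 0.188 for Cdt1, Mcm6 and Pcna.

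Pcna, the sliding clamp of DNA polymerases, read 2907, 2597, 2480 and 2559 at time 24 and 4220, 4404, 4709 and 4518 at time 48. Without overlap, its mean rose 1.69-fold (difference 0.75 ± 0.09, adjusted p = 0.000562). Among the subunits of the MCM helicase, which unwinds DNA, Mcm6 rose from 521, 557, 396 and 373 to 808, 870, 738 and 779 (1.73-fold, difference 0.77 ± 0.13, adjusted p = 0.00461). Mcm2 rose from 576, 573, 340 and 311 to 851, 840, 712 and 625. In both genes replicates 3 and 4 started lower than replicates 1 and 2, and every later array exceeded every earlier one. Mcm3 rose by 0.64 and Mcm4 by 0.56, while Mcm7 differed by 0.41 with overlapping groups (adjusted p = 0.163).

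Cdt1, which loads the helicase onto origins, rose from 558, 522, 353 and 358 to 893, 927, 696 and 626 (difference 0.78 ± 0.13). Ccne1 (cyclin E1, which drives entry into S phase) rose by 0.64, and its partner kinase Cdk2 by 0.36. Rpa2, which coats single-stranded DNA, rose by 0.65, Rrm2, a subunit of ribonucleotide reductase, by 0.51, and Cdc45, a helicase partner, by 0.49. Prim2, Orc6, Chaf1b and Slbp rose by 0.45 to 0.46. The calls of Mcm4, Orc6, Rrm2, Prim2, Chaf1b, Slbp and Cdk2 were lost without at least 1 array, with adjusted p up to 0.0956. With the dimmest 60% of genes left out, 9 members were called.

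In wild type the replication genes had a median difference of -0.08 and none passed. The difference between the steps passed the paired test for Pcna (0.88 ± 0.13, adjusted p = 0.0109) and for Rpa2 (0.66 ± 0.14, adjusted p = 0.0465), and for no other of the 28. Rpa2 lost that call in 9 of the 16 settings that left out 1 array. The mean log2 level of the DNA replication and S phase list was 8.90, 8.79, 8.53 and 8.51 in PKBa-/- arrays at time 24 and 9.19, 9.20, 9.05 and 9.01 at time 48. Wild type arrays averaged 8.89 ± 0.07 (SD, n = 4) and 8.82 ± 0.09.

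**Figure D2:**
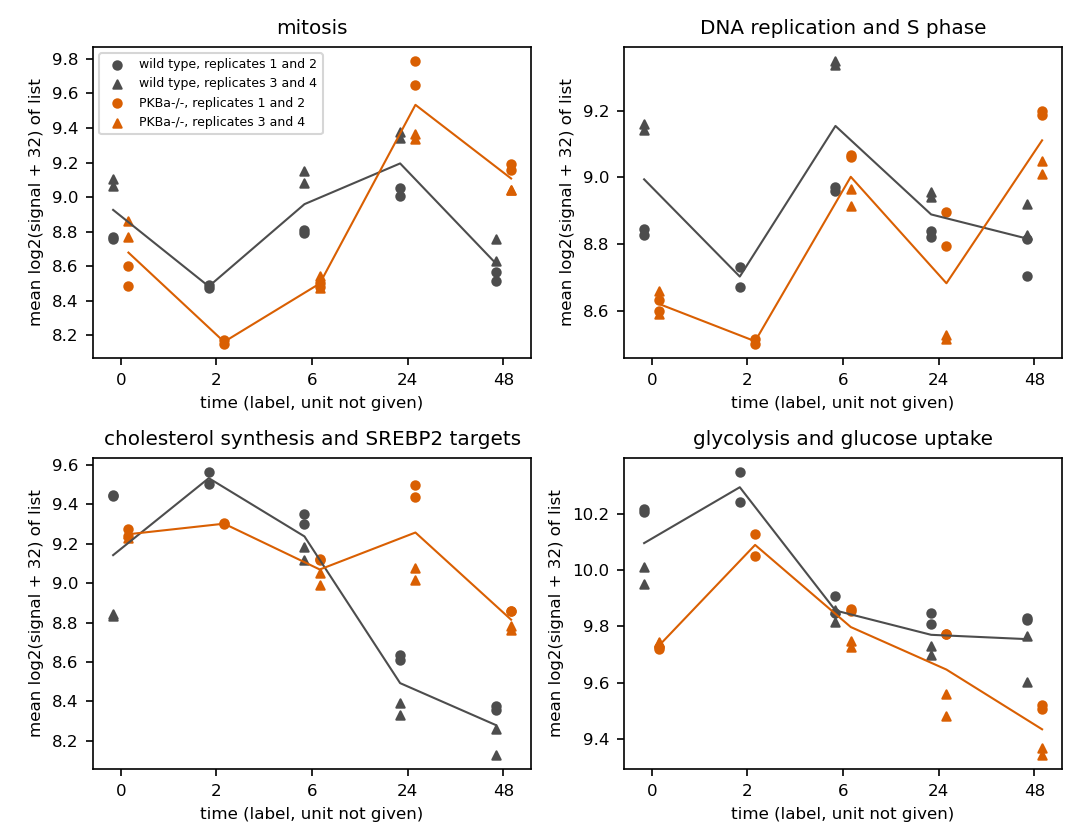
Each point is 1 array's mean log2(signal + 32) over the tested members of a list, against the time label (categories, not to scale), and lines join group means; circles are replicates 1 and 2, triangles replicates 3 and 4. In PKBa-/- arrays between times 24 and 48 the mitosis mean fell from 9.53 to 9.11 and the DNA replication mean rose from 8.68 to 9.11.

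Genes near the cell cycle lists moved in both directions. Tcf19, a factor induced late in G1, rose by 0.83. The histone genes H1f2 and H2az2 fell by 0.76 and 0.71, the only 2 of 7 tested histones that passed (background 2.19% of tested genes falling). None of 13 tested p53 target genes passed, and of 15 D cyclins, CDKs and inhibitors only Cdk2 did. Of all tested genes 5.10% passed, and in lists this short both counts are close to that share. Without replicate 3 of time 24, 2 p53 targets passed.

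Part of the cholesterol genes fell. SREBP2 is the transcription factor that induces cholesterol synthesis when sterols are scarce, and of 21 tested enzymes and targets 7 fell (background 2.19%), none rose and 20 were lower, with a median of -0.39 (-0.49 in replicates 1 and 2 and -0.29 in replicates 3 and 4). The unpaired test called none, and without the filter on dim genes the paired test called 4. Fdps, which makes farnesyl diphosphate, fell from 1922, 1781, 1263 and 1497 to 679, 799, 753 and 707 (2.20-fold, difference -1.09 ± 0.18, adjusted p = 0.00338; unpaired 0.219). Idi1, an isoprenoid isomerase, fell from 838, 755, 434 and 541 to 328, 326, 333 and 323 (difference -0.86 ± 0.16). The later arrays of both genes were nearly alike, while at time 24 replicates 1 and 2 stood above replicates 3 and 4. Fdft1 (squalene synthase) fell by 0.81, Msmo1 by 0.79, Mvd by 0.66, Nsdhl by 0.65 and Stard4, a sterol carrier, by 0.54. Mvd and Nsdhl lost the call without at least 1 array. Hmgcs1, which makes HMG-CoA, read 2834, 2692, 1837 and 1695 and then 1350, 1732, 1269 and 1294, with a difference of -0.65 (adjusted p = 0.0511). The wild type median was -0.21, and no member passed the test of the difference between the genotypes.

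Of 17 tested glycolytic genes 6 fell (background 2.19%) and none rose; 12 were lower and 5 higher, with a median of -0.17. Pfkl, the liver-type phosphofructokinase that commits glucose to glycolysis, fell from 1220, 1320, 837 and 959 to 661, 706, 590 and 665 (1.65-fold, difference -0.68 ± 0.12, adjusted p = 0.00585; unpaired 0.161). Aldoa (aldolase A) fell by 0.64, Ldha (lactate dehydrogenase A) and Pkm (pyruvate kinase) by 0.60 each, Tpi1 by 0.58 and Pgk1 by 0.40. Tpi1 and Pgk1 lost the call without at least 1 array. Pfkl differed by 0.14 in wild type, and its difference between the steps passed (-0.82 ± 0.17, adjusted p = 0.0457), though not in 6 of 16 settings without 1 array. Hk2 (hexokinase 2), which phosphorylates glucose, differed by -0.09 (adjusted p = 0.78). Of 37 oxidative phosphorylation genes, 30 were lower, where 48.9% of all tested genes were, with a median of -0.16. Only 1 fell (background 2.19%), the ATP synthase gene Atp5b (difference -0.39, adjusted p = 0.0416). Without replicate 3 of time 24, 3 of them fell.

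Small leucine-rich proteoglycans, which sit on collagen fibrils and set their width, held the 2 highest differences of all tested genes, those of Ogn and Lum. Ogn (osteoglycin) read 982, 996, 664 and 742 at time 24 and 2441, 2543, 2790 and 3165 at time 48, a rise of 3.23-fold without overlap (difference 1.67 ± 0.21, adjusted p = 0.000562; unpaired 0.0968). Lum (lumican) rose from 364, 332, 153 and 153 to 1389, 1286, 464 and 464. Replicates 1 and 2 read above 2 times replicates 3 and 4 at either time, and within each set the rise was by 1.85 and 1.42 on the log2 scale. Dcn (decorin) rose from 640, 574, 399 and 487 to 1754, 1711, 1085 and 1059 (2.67-fold, difference 1.35 ± 0.12, adjusted p = 8.39e-05; unpaired 0.258). Fmod (fibromodulin) rose by 0.79. These were 4 of 22 tested proteoglycan genes (background 2.90% of tested genes rising). None of the 22 fell, and the list's median was 0.03. Bgn (biglycan), of the same family, read 10220 to 11480 and then 9705 to 11740 (difference -0.03, adjusted p = 0.905), and Vcan (versican) differed by -0.01.

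**Figure D3:**
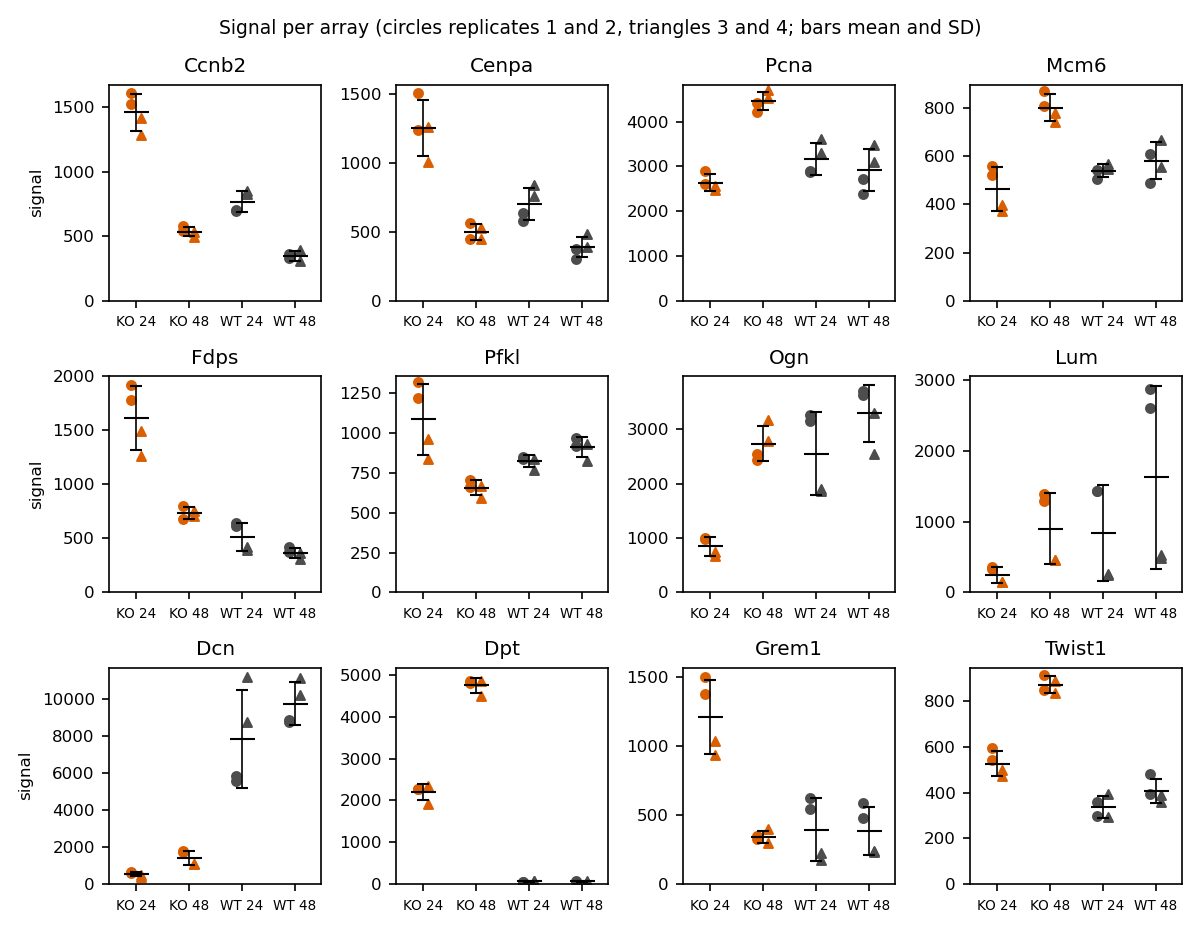
Signal of 12 genes on each array, with PKBa-/- arrays (KO, orange) and wild type arrays (WT, grey) at times 24 and 48; circles are replicates 1 and 2, triangles replicates 3 and 4, and bars show mean and SD of 4 arrays. In PKBa-/- arrays Ccnb2, Cenpa, Fdps, Pfkl and Grem1 were lower at time 48 and Pcna, Mcm6, Ogn, Lum, Dcn, Dpt and Twist1 were higher, each without overlap. How many of all tested genes had no overlap was not counted. Dcn in PKBa-/- arrays stayed at or below 1754, under every wild type array.

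Of 31 other matrix glycoproteins and elastic fibre genes, 7 rose and 1 fell (background 2.90% of tested genes rising and 2.19% falling). Beside Dpt, Mfap2, a microfibril protein, rose from 452, 428, 399 and 405 to 1137, 992, 663 and 673 (2.06-fold, adjusted p = 0.000353). Tnmd (tenomodulin), Nid2 (nidogen 2), Thbs2 (thrombospondin 2), Mfap4 and Lama2 rose by 0.49 to 0.71. Tnc (tenascin C), an adhesion-modulating protein, fell by 0.46. Tnmd, Thbs2, Lama2 and Tnc lost the call without at least 1 array. Fn1 (fibronectin) read 6594 to 7860 and then 6527 to 6838 (difference -0.14, adjusted p = 0.444).

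Collagen chains did not move as 1 block. Col5a3, Col6a3 and Col4a2 rose by 0.73, 0.41 and 0.38, and each lost the call without at least 1 array; without replicate 4 of time 24 the list had 2 calls. Col5a3 rose mainly in replicates 1 and 2, from 223 and 269 to 577 and 601, and read 131 and 107, then 150 and 157, in replicates 3 and 4. Col7a1, the anchoring fibril collagen, fell from 1401, 1311, 1105 and 1337 to 630, 634, 537 and 625 (2.12-fold, difference -1.05 ± 0.19). The abundant Col1a1, Col1a2 and Col3a1 chains overlapped between the times, with differences of 0.15, 0.00 and 0.08 and adjusted p of 0.455 or more. Of 20 matrix proteases and inhibitors 4 rose (background 2.90% of tested genes rising) and none fell. They were the metalloproteases Mmp3 (from 426, 405, 568 and 518 to 948, 1067, 1182 and 1321), Mmp2 (by 0.85) and Mmp23 (by 0.48), and Reck, a membrane inhibitor of metalloproteases (by 0.76). None of 29 contractile and actin genes passed the paired test, where 5.10% of all tested genes did. Among these genes Acta2 differed by 0.08 (adjusted p = 0.831). Without replicate 3 of time 24, 1 of them passed.

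Apoe, Mgp and Lpl, which are described together here because each was among the highest differences, all encode secreted proteins. Apoe, a carrier of cholesterol and other lipids, rose from 440, 399, 270 and 275 to 1196, 1198, 864 and 769 (2.91-fold, difference 1.46 ± 0.15, adjusted p = 0.000246; unpaired 0.764). Mgp (matrix Gla protein), an inhibitor of calcification, rose from 1374, 1103, 586 and 476 to 3259, 3262, 1428 and 1240. Its groups overlapped because replicates 1 and 2 read well above replicates 3 and 4 at either time, and within the sets the rise was by 1.38 and 1.28 on the log2 scale. Lpl (lipoprotein lipase), which frees fatty acids from lipoproteins, rose from 760, 611, 560 and 524 to 1436, 1550, 1551 and 1455 (2.44-fold; unpaired adjusted p = 0.0968).

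Lpl is also a marker of fat cells, so the other markers were read. Of 8 adipocyte markers on the array, 4 had mean signals above 123, and the summed signal of the 8 ran from 1373 to 1615 at time 24 and from 2311 to 2436 at time 48, while Lpl alone averaged 614 and 1498. Of 12 tested genes of the longer adipocyte list, Lpl rose, Plin2 (perilipin 2, a coat protein of lipid droplets) fell by 0.43, and the median was -0.05. Cebpa, a regulator of fat cell formation, read 453, 457, 294 and 256 and then 393, 363, 287 and 313 (adjusted p = 0.887). Whether fat cell formation had a part in the rise of Lpl was not tested.

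Genes of the insulin-like growth factor axis and imprinted genes held several of the large rises. Of 14 tested genes of that axis and the insulin receptor, 2 rose and 1 fell (background 2.90% rising and 2.19% falling), and 4 were lower. Among the brightest that did not pass, Igfbp4 differed by 0.46, Igf2r by 0.24 and Igfbp7 by -0.29. Igfbp2, which binds insulin-like growth factors, rose from 797, 795, 374 and 342 to 1911, 1958, 1477 and 1357 (2.90-fold, difference 1.57 ± 0.19, adjusted p = 0.000562; unpaired 0.188). Igf2 rose within each set, from 2307 and 2263 to 4014 and 3839 and from 624 and 626 to 1299 and 1210 (difference 0.87 ± 0.12), while the groups overlapped. Igf1 read 1006, 991, 648 and 679 and then 2455, 2408, 2088 and 2211, a 2.76-fold difference of means without overlap that missed the threshold (adjusted p = 0.0665; unpaired 0.707). Grb14, an adaptor that inhibits the insulin receptor, fell from 227, 186, 129 and 144 to 104, 98.8, 101 and 105. None of 18 tested members of the PI3K and AKT pathway passed, and their median was 0.09. Of all tested genes 5.10% passed, so a list this short could well hold no call. Of 17 FoxO factors and targets, which AKT is known to repress, 1 passed, close to the 5.10% of all tested genes. This was Ccng2, cyclin G2, which fell from 886, 899, 942 and 1066 to 480, 444, 603 and 621 (difference -0.79 ± 0.11). Without replicate 3 of time 24, 2 FoxO list members passed.

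Of 17 tested imprinted genes, which are expressed from 1 parental copy in at least some tissues, 6 rose (background 2.90%) and none fell, with a median of 0.23. Meg3, a noncoding RNA of the Dlk1-Dio3 domain, rose from 2788, 3171, 2859 and 2922 to 6315, 7141, 5426 and 5357 (2.06-fold, difference 1.03 ± 0.12, adjusted p = 0.00037). Rian, a noncoding RNA of the same domain, rose from 354, 337, 225 and 277 to 1016, 967, 314 and 690. Its replicate 3 at time 48, at 314, lay within the range of time 24, and the call was lost without replicate 4 of time 48 (adjusted p = 0.0647). Dlk1, the protein-coding gene of that domain and a repressor of fat cell formation, rose from 173, 172, 173 and 138 to 315, 291, 236 and 199. Plagl1, a zinc finger factor, rose from 2107, 2211, 1385 and 1527 to 4136, 3945, 3407 and 3873 (adjusted p = 0.0184; unpaired 0.962). Igf2 and Dcn are the remaining members that rose. Meg3 had read 6186 on average at time 0, close to its level at time 48.

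Among signalling genes, Grem1 had the lowest difference of all tested genes. This antagonist of bone morphogenetic proteins read 1500, 1372, 930 and 1036 at time 24 and 349, 327, 297 and 400 at time 48, a fall of 3.53-fold without overlap (difference -1.71 ± 0.19, adjusted p = 0.000308; unpaired 0.272). Vdr, the vitamin D receptor, fell from 1366, 1339, 1108 and 1061 to 598, 579, 758 and 757 (difference -0.83 ± 0.13). Of 28 TGF-beta target genes 3 fell (background 2.19% of tested genes falling), Tgfbi, Tgfb3 and Id3, by 0.43 to 0.55, and none rose. Among secreted growth factors Gas6, the ligand of the receptor Axl, rose by 0.70 and Cxcl12, a chemokine, by 0.60, while Fgf7 fell by 0.48. The neutrophil chemokine Cxcl1 fell by 0.62, and none of 16 interferon-induced genes passed (5.10% of all tested genes did). Tgfbi and Fgf7 lost the call without at least 1 array. Slc23a2, a vitamin C transporter, rose from 643, 651, 661 and 595 to 1363, 1465, 1276 and 1413 (2.16-fold, difference 1.07 ± 0.16).

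Other genes among the largest rises differed in size between the sets. Ccn3, a secreted CCN family protein, read 519, 459, 161 and 197 at time 24 and 688, 676, 805 and 752 at time 48. Its rise was by 0.46 in replicates 1 and 2 and by 1.95 in replicates 3 and 4 (adjusted p = 0.0243; unpaired 0.921). Plpp3, a lipid phosphate phosphatase, rose from 1594, 1682, 785 and 633 to 2985, 3441, 2038 and 2309, and Itgbl1, an integrin beta-like secreted protein, from 272, 286, 203 and 159 to 632, 670, 627 and 628. In these 3 genes the arrays were closer to each other at time 48 than at time 24 in proportion to their level. Il13ra1, a receptor subunit for interleukin 13, fell from 215, 233, 392 and 336 to 124, 135, 169 and 155.

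Calls in the lists for ribosomes, early response and oxidative stress were read against 2.90% of all tested genes rising and 5.10% passing. Of 33 ribosome biogenesis genes 3 rose (Ltv1 by 0.69, Nop56 by 0.44 and Nolc1 by 0.42) and none fell, with a median of 0.12, and of 29 cytosolic ribosomal protein genes none passed. Of 31 immediate early genes, Fos rose by 0.54 and Jund by 0.49; Fos differed by 0.76 in wild type. Hmox1 (heme oxygenase 1) rose from 388, 380, 347 and 403 to 605, 670, 660 and 614, the only 1 of 24 NRF2 and glutathione genes to pass. Nop56 lost the call without replicate 2 of time 48 (adjusted p = 0.051).

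**Figure D4:**
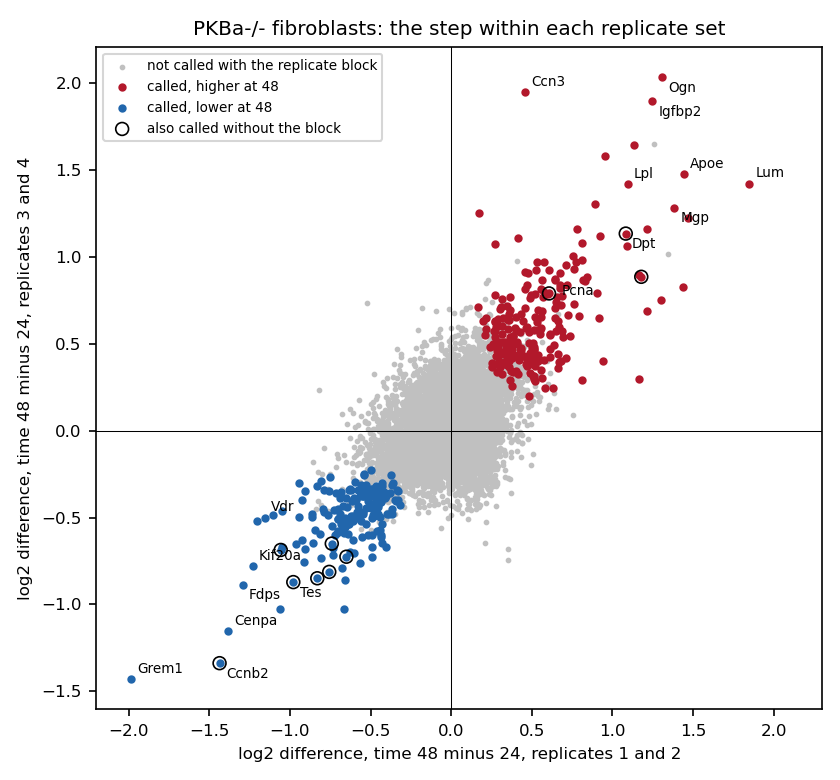
Each point is 1 of 7436 genes, with the log2 difference of time 48 minus time 24 in replicates 1 and 2 (horizontal) and in replicates 3 and 4 (vertical); coloured points passed the paired test and circled ones also the unpaired test. All 379 coloured genes lie in the quadrants of equal sign, a pattern the paired test itself favours, while 60.3% of all tested genes have equal sign.

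The same step in wild type fibroblasts gave fewer calls. The unpaired test called none (241 at an unadjusted p of 0.05), and the paired test 58 (0.780%), 19 higher and 39 lower. Of the genes called by the paired test in PKBa-/- fibroblasts, 19 were also called in wild type, 17 of them with the same sign. Whether the steps differed was tested directly: the unpaired test called no gene (240 at an unadjusted p of 0.05), and the paired test called 49 (0.659%), 30 with a higher and 19 with a lower step in PKBa-/-. Without the filter on dim genes 10 passed the paired test of this difference.

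Several of the large changes described above passed this test of the difference. Igfbp2 differed by 1.57 in PKBa-/- and by -0.23 in wild type, where its mean went from 987 ± 300 (SD, n = 4) to 839 ± 269 (difference between the steps 1.80 ± 0.27, adjusted p = 0.0109). Mgp, at means of 14200 and 13970 in wild type, far above any PKBa-/- array, differed there by -0.02 (difference between the steps 1.35 ± 0.16, adjusted p = 0.00473). Apoe, Lpl and Dcn had differences between the steps of 1.34, 1.21 and 0.98, with adjusted p of 0.0172, 0.0109 and 0.019. Dcn read 7831 ± 2660 and 9751 ± 1150 in wild type, above all PKBa-/- arrays at either time, and Lpl 3494 ± 641 and 3581 ± 335, also above them. For Ogn and Lum, which differed by 0.40 and 0.92 in wild type, the difference between the steps did not pass (adjusted p = 0.0688 and 0.217).

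Grem1, at means of 391 ± 228 and 385 ± 175 in wild type, differed by 0.06 there, and the difference between the steps was -1.76 ± 0.26 (adjusted p = 0.0109). Cux1 fell in PKBa-/- and differed by 0.24 in wild type (difference between the steps -0.93 ± 0.12, adjusted p = 0.00473; unpaired 0.139). For other genes the steps differed while the step in PKBa-/- itself did not pass. Penk (proenkephalin) differed by 1.24 in wild type and by -0.35 in PKBa-/- (adjusted p = 0.352 for the latter). Ptn (pleiotrophin), a heparin-binding growth factor, differed by -0.89 in wild type and by 0.09 in PKBa-/-, where it read 8492 to 11730 throughout.

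**Figure D5:**
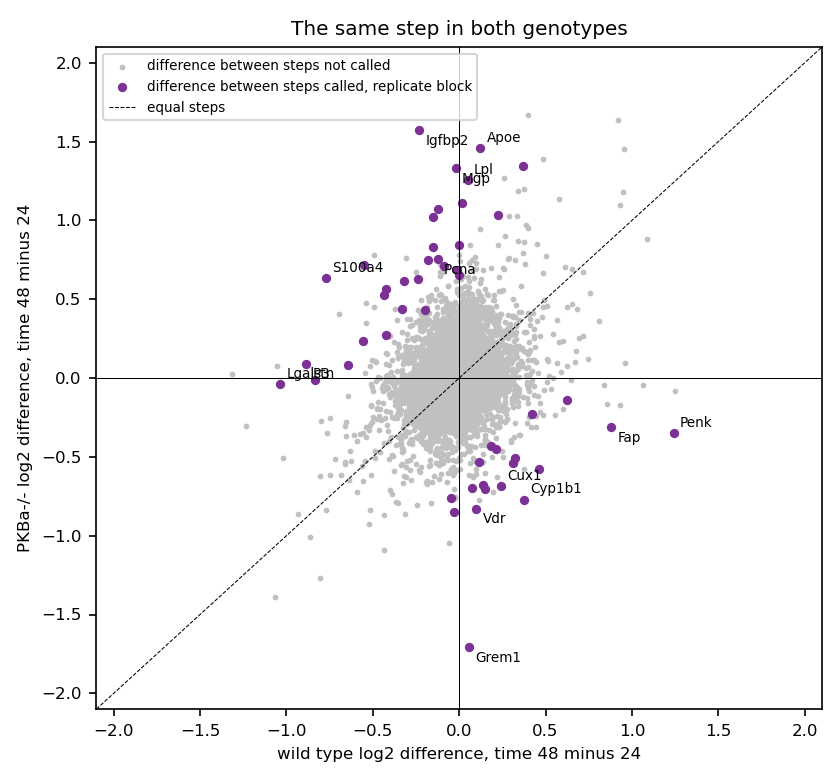
Each point is 1 of 7436 genes, with the log2 difference of time 48 minus time 24 in wild type (horizontal) and in PKBa-/- fibroblasts (vertical); the 49 purple genes passed the paired test of the difference between these steps, and the dashed line marks equal steps. Igfbp2, at 1.57 against -0.23, and Grem1, at -1.71 against 0.06, lie farthest from the line among the labelled genes.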

How the data were processed

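RNA of 36 mouse fibroblast samples was hybridized to Affymetrix arrays. The authors deposited 1 intensity value per probe set on a linear scale; no source used here names the summary or normalization method. Of 22690 probe sets, the 20380 with 1 gene (691 had several, 1555 none, 64 were controls) gave 12393 genes, each read on its brightest probe set as log2(signal + 32). The dimmest 40% of genes were left out. The main fit, by limma 3.58.1 under R 4.3.3, estimated 10 group means from 18 pair averages (8 residual and 4.24 prior degrees of freedom), two-sided, with Benjamini-Hochberg adjustment at 0.05. The paired fit added the replicate set (1 and 2, or 3 and 4) within genotype as a block. Residuals of same-numbered arrays at times 24 and 48 correlated at 0.204 to 0.591 in PKBa-/- and 0.535 to 0.719 in wild type, which is where the pairing comes from; not every array matched its own number best. The fits were run on simulated data in which each replicate set deviated by the same amount at every time. That run could not test whether the pairing holds in these arrays.

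Named genes were Akt1, the 15 highest and 15 lowest passing differences with 1 sign in both sets, up to 4 passing members and 3 bright members of each list, and the 10 smallest p-values between genotypes, with the rule also applied to the paired fit after its counts were seen. Other members that passed are named beyond it, as is Tcf19, all chosen after their values were seen. The members and the gene lists were chosen with earlier results of these data known. Gene names came from GEO's platform annotation, of which 20351 probe sets matched RefSeq by gene ID. Promoters were RefSeq's, at each gene's first listed start. Alternatives were offsets of 16 and 64, other filters, averaged probe sets, an intensity trend, quantile normalization, other units and blocks, the compared groups alone, and leaving out each array.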

Additional observations from a re-analysis of the deposited data

Results flagged for a closer look

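In 10 of 262 sets of 4 PKBa-/- arrays that were checked, 1 array stood apart from the others by Dixon's criterion. It flags about 1 in 20 sets of 4 independent values by chance. These arrays formed 2 nearly alike pairs, so that rate does not apply to them. At time 48 these were Dpt at 4496 and Col7a1 at 537 in replicate 3 (both low), Tes at 213 in replicate 3 (high), Chaf1b at 177 in replicate 4 (low), Slbp at 981 and Pgk1 at 4645 in replicate 1 (both high), and Itgbl1 at 670 and Nop56 at 1129 in replicate 2 (both high). At time 24 they were Dlk1 at 138 in replicate 4 (low) and Jund at 1248 in replicate 1 (high). Dpt at 4496 still lay above every array of time 24, whose highest was 2346.

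For 36 of the named genes the step from time 24 to 48 differed between the genotypes by limma's paired test of the difference; the unpaired test called none of them. The following are steps in PKBa-/- minus steps in wild type on the log2 scale. The step was higher in PKBa-/- for Igfbp2 1.80, S100a4 1.41, Mgp 1.35, Apoe 1.34, St3gal4 1.26, Lpl 1.21, Slc23a2 1.20, Itm2a 1.17, Dpt 1.09, Lgals3 1.00, Dlk1 0.99, Tcf19 0.98, Dcn 0.98, Ptn 0.98, Pcna 0.88, Vcan 0.82, Apod 0.81, Fignl1 0.80, Rad18 0.77, Anxa2 0.72 and Rpa2 0.66. It was lower for Grem1 -1.76, Penk -1.59, Fap -1.19, Cyp1b1 -1.15, Grb14 -1.04, Cux1 -0.93, Vdr -0.93, Mif -0.85, Notch3 -0.85, Ddr1 -0.83, Pfkl -0.82, Il13ra1 -0.82, Casp12 -0.77, Ak1 -0.71 and Psmb8 -0.65. Of the 36, 26 kept the call whichever of the 16 arrays was left out. Rpa2 and Rad18 lost it in 9 of 16 such settings, Pfkl in 6, and Il13ra1 and Psmb8 in 2. In wild type, Dpt (means 58.0 and 59.4) and Psmb8 (89.3 and 99.7) read under a signal of 123 at both times, so for these genes a step in wild type could hardly be read.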

How the results depend on the processing

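The 10 calls of the unpaired test in PKBa-/- became 4 with an offset of 16, 19 without the filter, 1 with the mean of all probe sets, 17 after quantile normalization, 25 with the compared groups alone, 584 with arrays as independent replicates, 115 with the pair as a random effect, 957 with the replicate number as a block, 379 with the replicate block on pair averages and 1463 with that block on all arrays (added later). Replicates 1 and 2 alone gave 1949 (832 higher, 1117 lower) and replicates 3 and 4 alone 915 (637 higher, 278 lower), on near-technical pairs; leaving out 1 array gave 4 to 15. The 0 wild type calls became 127, 11, 267, 58 and 700 with arrays as replicates, the random pair, the number block, the replicate block and that block on all arrays, and 1297 and 526 in either set alone. For the difference between steps the 0 calls became 117, 5, 285, 49 and 742 under the same settings, 1071 and 961 in either set alone, and 1 without the filter. With the replicate block the wild type count of 58 became 12 without the filter, 36 with the dimmest 60% left out, 19 with the mean of all probe sets and 196 with the compared groups alone; the difference between steps went from 49 to 10 without the filter and 173 with the compared groups alone. On pair averages the 379 paired calls stayed within 1.5 times under the other offsets, filters, probe set rule, normalization, trend and compared groups alone, and were 335 to 454 without 1 array, and 308 to 360 of the same genes remained called. Of the 121 named genes that passed, none changed sign in 2757 alternative values, and 89 kept the paired call whichever array was left out. A change of sign could hardly occur, since the paired calls all had 1 sign in both sets and the alternatives reuse the same arrays. The cause of these shifts was not tested. Each group rests on 2 pair averages, which limits the precision.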
